A study of Mus musculus with 13 samples.

Results

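Transcripts of the integrin chains and of the laminin chains were followed in differentiating female mouse embryonic stem cells (mESCs) in which Smarcc1 was knocked down. The members were the 37 genes, of 25965 in the table, whose symbols name an integrin alpha chain (18 genes), an integrin beta chain (8), a laminin alpha chain (5), a laminin beta chain (3) or a laminin gamma chain (3). Of these, 26 had a mean level of at least 0 on the log2 CPM scale (CPM being reads scaled to a common library total) over the libraries of days 4 to 7 and were tested. The other 11 fell under that filter.

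Integrins are cell surface receptors made of 1 alpha and 1 beta chain, which join the extracellular matrix to the actin cytoskeleton. Laminins are trimers of 1 alpha, 1 beta and 1 gamma chain and form the first network of a basement membrane. Chains are named by number, so that laminin-511 holds Lama5, Lamb1 and Lamc1, and laminin-111 holds Lama1, Lamb1 and Lamc1. In the early mouse embryo laminin-111 and laminin-511 build the embryonic basement membranes, and integrins that contain the beta 1 chain bind them. Lama3 and Lamb3 belong to an epithelial laminin that is anchored through integrin alpha 6 beta 4.

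The cells came from female mESC lines derived from FVB/NJ dams and CAST/EiJ sires, and no group carried a genetic deletion. Day0 was 1 library of undifferentiated, untransduced cells. Nons cells carried a nonsilencing control hairpin, and Smarcc1.6 and Smarcc1.7 cells carried 1 of 2 hairpins against Smarcc1, which codes for a core protein of the BAF chromatin remodeller. All 3 transduced groups received retrovirus on day 2 and puromycin on day 3, and each gave 1 library on each of days 4, 5, 6 and 7. The 4 days therefore served as the replicates of a group, and differences were taken between libraries of the same day. Nothing in the labels says that these libraries came from separate cultures, so p-values measure the spread between these libraries. The cells were mESCs grown attached on gelatin, differentiation was undirected and in serum, and the hairpins reduce the transcript without removing it. RNA came from whole cultures, so fewer cells of a type and less RNA per cell cannot be told apart.

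The perturbation is shown by the sites that the hairpins match. Each hairpin guide is complementary to 22 bases of coding sequence of Smarcc1 on the plus strand of chromosome 9, and the match was found in no transcript of another gene. The Smarcc1.6 site lies in exon 13 (chr9:110177472-110177493, mm10) and the Smarcc1.7 site in exon 11 (chr9:110173911-110173932, mm10), both of 28 exons. The sites read, 5′ to 3′ on the transcript:
Smarcc1.6: gcaggatgaagaagcagttaca
Smarcc1.7: tcagaaggaagaagatgagcaa
Smarcc1 stood at 9.10, 8.87, 8.28 and 7.89 log2 CPM in Nons on days 4 to 7, at 7.42, 7.40, 7.28 and 7.28 in Smarcc1.6, and at 7.96, 7.78, 7.16 and 7.51 in Smarcc1.7. It was lower than Nons in 8 of 8 same-day pairs. Here and below, both pairs of a day share the Nons library of that day, so the 8 pairs are not independent. The mean difference was -1.06 (exact permutation test, two-sided, p = 0.0123, the smallest that 81 arrangements can give), which left 43.9% of the Nons level with Smarcc1.6 and 52.5% with Smarcc1.7. In Nons Smarcc1 itself declined over these days. The difference was smaller on day 7 than on day 4, and in Smarcc1.7 cells Smarcc1 was higher on day 7 (7.51) than on day 6 (7.16). The cause of the smaller difference was not tested.

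Depth ran from 13993440 to 63548079 mapped reads per library. Day0 and the 3 libraries of day 6 stood apart from the rest, with 85.3% to 86.5% of their reads in genes, while the remaining 9 had 91.6% to 92.6%. Ribosomal protein genes took 1.84% to 2.27% of reads in Day0 and day 6, and 4.42% to 7.07% in the remaining 9. Each same-day difference is between libraries of 1 kind in these respects, whereas differences between days or from Day0 can join both kinds. The mESC markers Pou5f1, Sox2, Nanog, Zfp42, Esrrb and Klf4 summed to 4279 CPM in Day0, to 1083 to 1730 in Nons, to 1346 to 2520 in Smarcc1.6 and to 1084 to 2093 in Smarcc1.7. All 6 markers were thus present, with the highest sum at Day0, and 4 of these 6 markers were called higher in knockdown (Sox2, Zfp42, Esrrb, Klf4). Their part in the results on integrins and laminins was not tested.

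Which chain transcripts were most abundant in these cells? Levels of different genes were compared per kilobase of exon, as log2 CPM per exonic kb averaged over the 12 libraries of days 4 to 7. Among integrin chains Itgb1 was highest (6.43), the beta chain that pairs with most laminin and fibronectin receptors, followed among the beta chains by Itgb5 (3.68). Of the alpha chains Itga3 stood at 4.52 and Itga5 at 3.78, with Itga6 at 3.60. Itga3 and Itga6 form laminin receptors with Itgb1, and Itga5 forms the fibronectin receptor.

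Among laminin chains the chains of laminin-511 led each class. Lama5 stood at 4.77 and Lamc1 at 4.76 log2 CPM per exonic kb, and Lamb1 at 3.63. The next alpha and beta chains were Lama3 at 1.03 and Lamb2 at 1.65, and Lama1, the alpha chain of laminin-111, stood at -0.05. In the heat map of levels, which is not per kb, Itgb1 and the chains of laminin-511 are among the brightest in the late libraries.

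**Figure D1:**
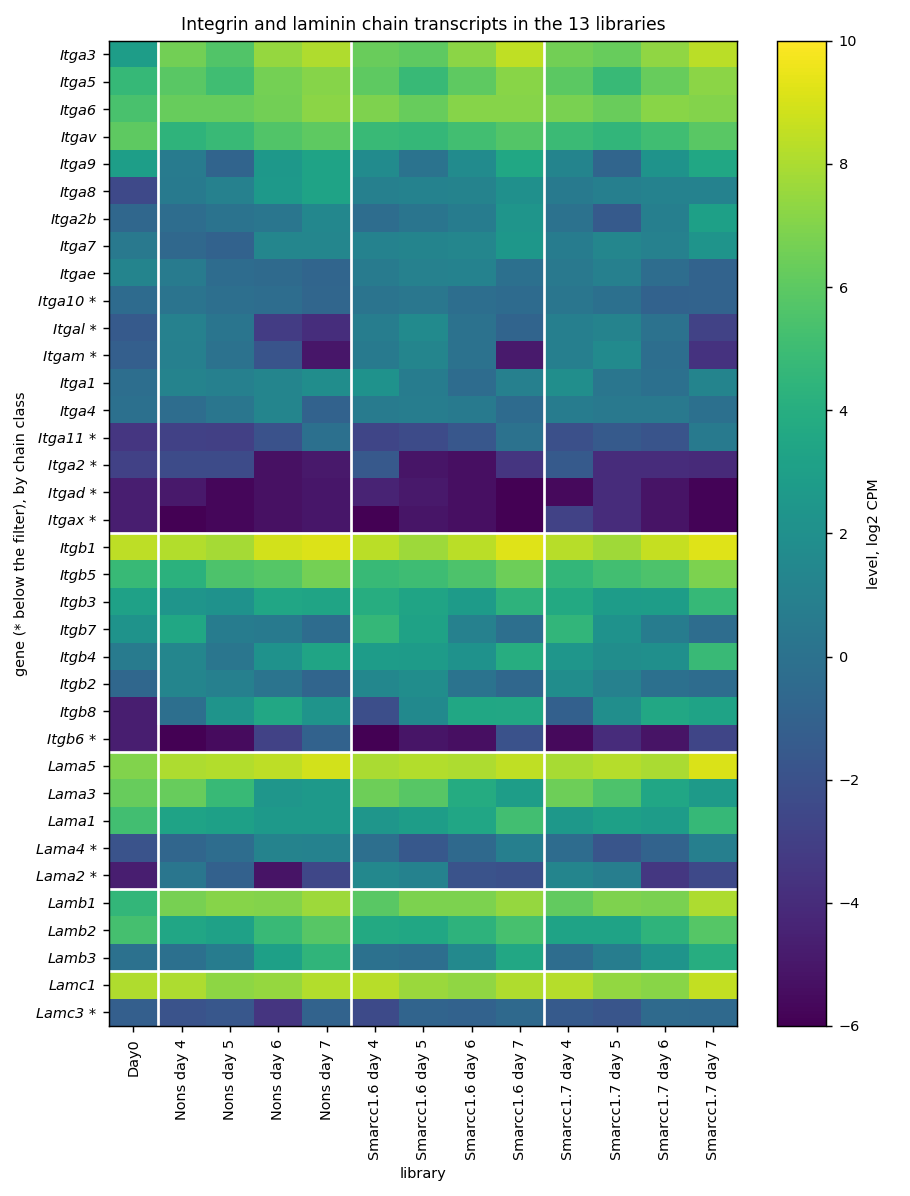
Level (colour, log2 CPM) of 36 integrin and laminin chain genes (rows, grouped by chain class, genes under the filter marked *) in the 13 libraries (columns, 1 library each). Itgb1, Lama5, Lamb1, Lamc1, Itga3, Itga5 and Itga6 are bright throughout days 4 to 7, whereas Lama3 and Itgb7 are darker, and Lamb3 and Itgb8 brighter, on day 7 than on day 4 in each group.

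Day0 had 1 library and no matched control, so its values are a description. For 25 of the 37 members the Day0 level lay inside the range of the 12 later libraries. By the deposited values it lay outside by at least 1 log2 unit for 4 members, all of them lower at Day0. For Itgb8 among them, this rests on the value written where no reads were found. Itga3 had 2.91 log2 CPM at Day0 against 5.66 to 8.46 later. Lamb1 (chr12:31265234-31329644) had 4.57 against 5.89 to 8.02. Itga8, an alpha chain that binds nephronectin, had 4 reads at Day0 (-2.48 log2 CPM) against 0.53 to 3.25 later. These 3 genes were already above their Day0 level in each library of day 4, though those libraries differ from Day0 in the share of reads in genes.

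Itgb8, the beta chain of the integrin that releases active TGF-beta, had 0 reads at Day0, and its later levels ran from -2.18 to 3.61 log2 CPM. Against a floor of 3 reads at Day0, the Nons library of day 4 was at least 6.73-fold higher. The lowest later level, in Smarcc1.6 on day 4, was at least 1.64-fold above that floor, which falls short of 1 log2 unit. In contrast, Itgb1 was nearly as high at Day0 (8.42) as later (7.68 to 9.21), and Lamc1 (8.11, later 7.18 to 8.53) likewise lay inside its later range.

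Most tested members changed between days 4 and 7. A model of log2 CPM on day with group as a covariate called 17 of 26 members as rising and 4 as falling, against 34.9% and 25.6% of the 13406 genes tested, and either call was made for 21 members against 60.5% of all genes. Day 7 set against day 4 called 18 members rising and 4 falling, against 40.7% and 31.7% of all genes. Both fits count the 3 libraries of a day as independent, though they can share an effect of that day. SE and p-values for the change with day can therefore be too small. The median change of the 26 was 0.43 log2 per day, against 0.04 over all genes tested. All 3 laminin beta chains rose. Lama1, Lamc1, Itga1, Itga4 and Itgb3 were not called.

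The epithelial chains Lama3 and Lamb3 moved apart. Lamb3 (chr1:193301957-193343878) had -0.06, 0.73, 3.11 and 4.48 log2 CPM in Nons on days 4 to 7, -0.06, -0.22, 1.51 and 3.61 in Smarcc1.6, and -0.27, 0.78, 2.27 and 3.94 in Smarcc1.7. In each group days 6 and 7 lay above days 4 and 5. It rose by 1.43 ± 0.13 log2 per day (SE; limma, adjusted p = 7.63e-06), and day 7 exceeded day 4 in Nons by 23.4-fold, in Smarcc1.6 cells by 12.8-fold and in Smarcc1.7 cells by 18.6-fold.

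Lama3 (chr18:12334024-12583013), the alpha chain, went the other way. It had 6.28, 4.81, 2.40 and 2.66 log2 CPM in Nons, 6.49, 5.86, 3.82 and 2.93 in Smarcc1.6, and 6.45, 5.56, 3.49 and 2.71 in Smarcc1.7. Day 4 was the highest and close to Day0 (6.30) in all 3 groups, and days 6 and 7 the lowest. It fell by 1.31 log2 per day (SE 0.12, limma, adjusted p = 7.79e-06), so that day 4 was 12.3-fold above day 7 in Nons.

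The chains of laminin-511 had smaller slopes than Lamb3 and Lama3. Lama5 (chr2:180176373-180225859) had 8.01, 8.16, 8.44 and 8.93 log2 CPM in Nons, 7.97, 8.17, 8.02 and 8.48 in Smarcc1.6, and 7.88, 8.21, 7.96 and 9.08 in Smarcc1.7 on days 4 to 7, and all 12 lay above Day0 (6.99). Lamb1 had 6.70, 7.11, 7.04 and 7.64 log2 CPM in Nons, 5.89, 6.83, 6.83 and 7.49 in Smarcc1.6, and 6.13, 6.90, 6.75 and 8.02 in Smarcc1.7, with day 7 the highest in each group. Lamc1 (chr1:153218922-153332786) had 8.03, 7.25, 7.47 and 8.18 log2 CPM in Nons, 8.30, 7.58, 7.37 and 8.12 in Smarcc1.6, and 8.25, 7.40, 7.18 and 8.53 in Smarcc1.7, with days 5 and 6 the lowest.

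Lamb2, which replaces Lamb1 in several basement membranes, had 3.44, 3.16, 4.85 and 5.83 log2 CPM in Nons, 3.75, 3.54, 4.36 and 5.37 in Smarcc1.6, and 3.26, 3.29, 4.40 and 5.76 in Smarcc1.7, against 5.30 at Day0. It was lowest on day 4 or day 5 and highest on day 7 in each group.

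Of the other laminin chains that were called, Lamb2 rose by 0.77 ± 0.11 log2 per day, Lamb1 by 0.44 ± 0.07 and Lama5 by 0.26 ± 0.06. Lamc1 dipped on days 5 and 6 in all 3 groups, from 8.03 to 8.30 on day 4 and back to 8.12 to 8.53 on day 7, and its slope of 0.02 ± 0.13 was not called.

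**Figure D2:**
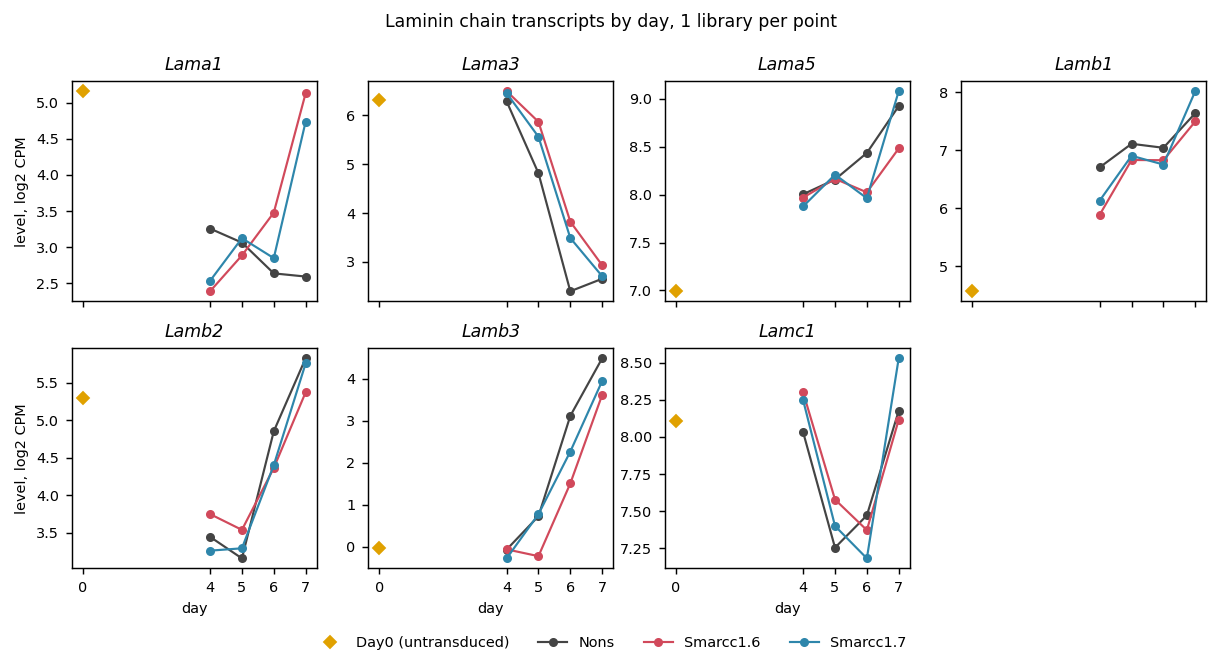
Level of 7 laminin chain genes that passed the filter (vertical axis, log2 CPM, a separate scale for each gene) by day (horizontal axis), with Day0 as a diamond and the groups as lines through 1 library per day. Lama3 goes down while Lamb3 goes up in all 3 groups, and Lama1 separates on day 7, at 2.59 in Nons against 5.13 and 4.74 in the hairpin libraries.

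Among integrin alpha chains 8 of 11 tested rose with day and 1 fell. Itga9, a receptor chain for tenascin and other ligands, had 0.69, -0.84, 2.53 and 3.28 log2 CPM in Nons, 1.697, 0.12, 1.72 and 3.51 in Smarcc1.6, and 1.23, -0.81, 2.25 and 3.56 in Smarcc1.7. It was lowest on day 5 in each group. It rose by 0.94 ± 0.29 per day (limma, adjusted p = 0.0165), and the call was lost without day 7 (0.48 per day, adjusted p = 0.429) and without the Smarcc1.6 or Smarcc1.7 library of day 7 alone (adjusted p = 0.0510 and 0.0569).

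Itga3 (chr11:95044474-95076801) had 6.59, 5.66, 7.46 and 8.08 log2 CPM in Nons, 6.36, 6.04, 7.20 and 8.46 in Smarcc1.6, and 6.602, 6.25, 7.36 and 8.32 in Smarcc1.7. Itga5 (chr15:103344289-103366763) had 5.93, 5.09, 6.64 and 7.12 log2 CPM in Nons, 6.05, 4.76, 6.05 and 7.18 in Smarcc1.6, and 5.95, 4.80, 6.25 and 7.19 in Smarcc1.7, against 4.73 at Day0. Both were lowest on day 5 and highest on day 7 in each group.

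The laminin receptor chain Itga3 rose by 0.67 ± 0.13 per day and Itga6 by 0.20 ± 0.07. The fibronectin receptor chain Itga5 rose by 0.50 ± 0.17 and Itgav, which pairs with several beta chains, by 0.41 ± 0.07. Itgae, whose product pairs with Itgb7, had 0.63, -0.37, -0.49 and -0.80 log2 CPM in Nons, 0.65, 1.01, 1.12 and -0.12 in Smarcc1.6, and 0.46, 0.95, -0.29 and -0.91 in Smarcc1.7. It fell by 0.40 per day (SE 0.12, limma, adjusted p = 0.0167). Its level ran from -0.91 to 1.12 log2 CPM, with 17 to 100 reads, and Gsg2, a gene on the opposite strand within its bounds, averaged 4.77 against 0.15 for Itgae. Whether counting used strand is not given in the sources used here, so reads of Itgae and Gsg2 cannot be told apart, and Itgae is uncertain. Its call was lost without the Nons library of day 4 (adjusted p = 0.0597) and without either hairpin library of day 7 (0.0549 and 0.0587). It was also lost without all libraries of day 7 and when reads were thinned to the smallest depth.

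Of the integrin beta chains 4 of 7 tested rose and 2 fell. Itgb8 (chr12:119158022-119238802) had -0.14, 2.27, 3.61 and 2.27 log2 CPM in Nons, -2.18, 1.57, 3.51 and 3.58 in Smarcc1.6, and -1.12, 1.92, 3.61 and 3.28 in Smarcc1.7. Day 4 was the lowest in each group. It rose by 1.42 ± 0.29 per day (limma, adjusted p = 0.00152), and by 0.56 without the libraries of day 4 (adjusted p = 0.141).

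Itgb1 (chr8:128685654-128733200) had 8.15, 7.87, 8.90 and 9.18 log2 CPM in Nons, 8.36, 7.68, 8.35 and 9.21 in Smarcc1.6, and 8.29, 7.69, 8.60 and 9.19 in Smarcc1.7. It was lowest on day 5 in each group and highest on day 7. Itgb5 (chr16:33829665-33949153), the partner of Itgav in vitronectin binding, had 4.20, 5.502, 5.78 and 6.63 log2 CPM in Nons, 4.79, 5.05, 5.51 and 6.48 in Smarcc1.6, and 4.60, 5.17, 5.52 and 6.86 in Smarcc1.7, and went up from each day to the next in all 3 groups. Itgb5 rose by 0.67 ± 0.07 and Itgb1 by 0.36 ± 0.10.

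Itgb7 (chr15:102215995-102231935), known as a chain of lymphocyte homing receptors, had 3.56, 0.69, 0.51 and -0.37 log2 CPM in Nons, 4.68, 3.23, 1.01 and -0.17 in Smarcc1.6, and 4.50, 2.15, 0.74 and -0.31 in Smarcc1.7. Day 4 was highest and day 7 lowest in each group, and Day0 (2.21) lay between. It fell by 1.49 per day (SE 0.14, limma, adjusted p = 1.18e-05). Itgb2, the common beta chain of the leukocyte integrins, had 1.31, 0.97, 0.15 and -0.80 log2 CPM in Nons, 1.39, 1.85, 0.10 and -0.63 in Smarcc1.6, and 1.83, 1.05, -0.08 and -0.34 in Smarcc1.7. Day 7 was the lowest in each group, and it fell by 0.75 per day (SE 0.10, limma, adjusted p = 0.000121).

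Itgb2 and Itgb7 are known from leukocytes, so leukocyte markers were read beside them. Of 4 listed, 3 were in the table. Ptprc, which defines leukocytes, had at most 3 reads in any library, whereas Cd68 and Csf1r were detected in all 13. The sum of the 3 markers ran from 8.53 to 20.2 CPM in Nons, 13.02 to 25.9 in Smarcc1.6 and 11.4 to 32.5 in Smarcc1.7, and was highest on day 7 in each group. Cd68 was called higher in knockdown (0.84 ± 0.23). The part of these markers in the levels of Itgb2 and Itgb7 was not tested.

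The number of members called depended on day 7. Without the 3 libraries of day 7, 10 of the 26 members were called for a change with day, 5 in each direction. Without those of day 6, which stood apart, 21 were called. Markers of other cell types moved with day as well. The trophoblast list, of which 6 of 7 were tested, includes the simple epithelial keratins Krt8 and Krt18. It summed to 73.4 to 121 CPM on day 4 and to 2758 to 3552 on day 7 (99.7 at Day0). Krt8 and Krt18 made up most of the day 7 sum and rose by 2.57 and 2.15 log2 per day. The slopes of the other tested markers were 0.69 for Cdx2, 0.33 for Hand1, -0.05 for Tfap2c and -0.46 for Ascl2. Tfap2c and Ascl2 were not called. The part of these markers in the rise of Lamb3 was not tested.

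**Figure D3:**
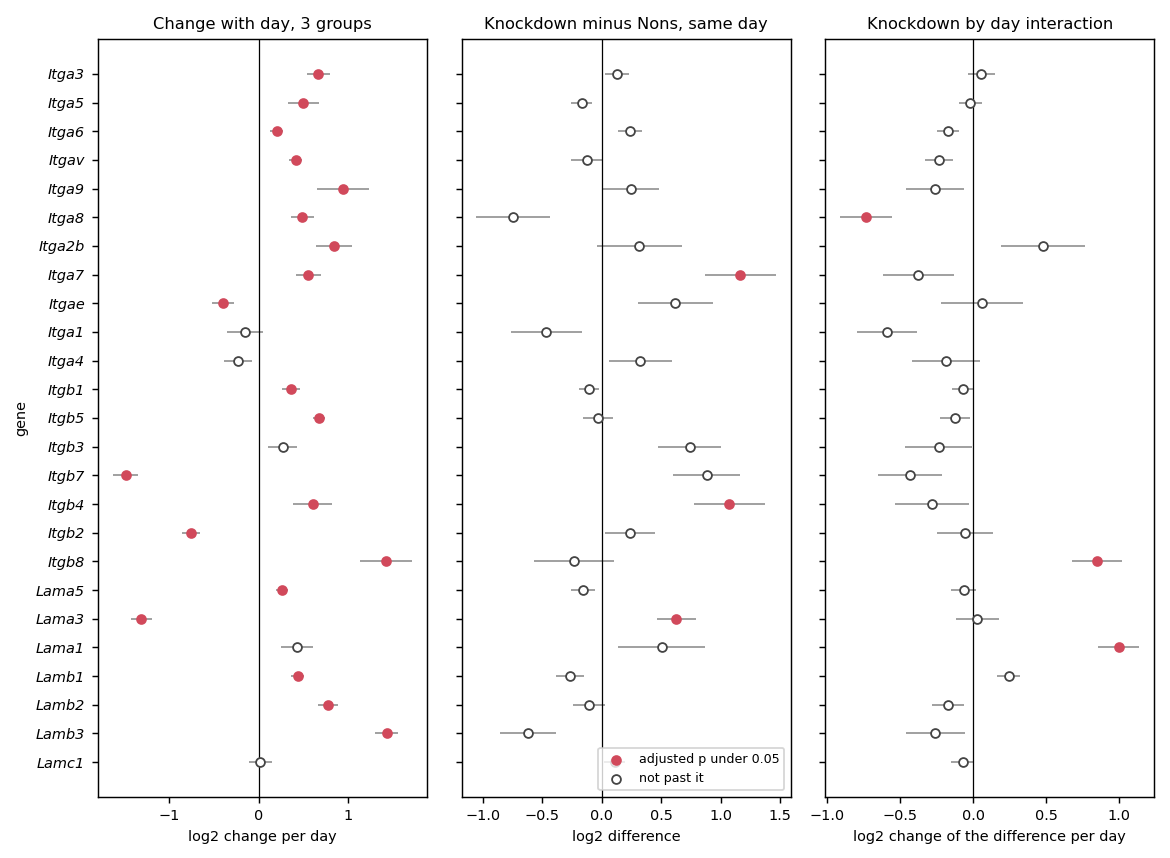
Fitted values ± SE for 25 tested members: the change per day over all 3 groups (left, log2 per day), the same-day difference of knockdown from Nons (middle, log2) and the change of that difference per day (right, log2 per day), with filled red points past an adjusted p of 0.05. On the left 20 points are filled and on each other panel 3 are.

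Promoter sequence was printed for the members with the largest rise and the largest fall per day that had an entry lying outside annotated exons, to show what precedes them. RefSeq promoter windows (250 bases before to 50 after a start, GRCm38.p6) were matched for 23 of 37 members. The stretch of Lamb3 (plus strand, chr1:193301744-193301956) had 213 bases and that of Itgb7 (minus strand, chr15:102231945-102232185) had 241. Capitals mark the CACCC box, searched as CCCACCC on both strands, which the KLF and SP factors can bind. The stretches read 5′ to 3′:
Lamb3: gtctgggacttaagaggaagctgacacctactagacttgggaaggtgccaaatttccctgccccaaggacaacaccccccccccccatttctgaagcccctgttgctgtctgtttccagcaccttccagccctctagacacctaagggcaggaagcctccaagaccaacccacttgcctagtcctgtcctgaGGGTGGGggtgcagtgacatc
Itgb7: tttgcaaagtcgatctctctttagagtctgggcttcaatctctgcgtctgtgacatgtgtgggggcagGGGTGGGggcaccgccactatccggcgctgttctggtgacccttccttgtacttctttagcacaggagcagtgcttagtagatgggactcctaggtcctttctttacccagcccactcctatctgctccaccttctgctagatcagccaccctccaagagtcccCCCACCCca
The riser had 1 such match and the faller 2. Over the whole windows 8 of the 23 members held the box, against 19.4% of 27025 genes with a window. Besides Lamb3 and Itgb7 they were Itga2b, Itgb8, Lamb1 and Lamb2, which rose with day, Itga4, which was not called, and Lama2, which was not tested. The GC box GGGCGG was found in 11 of 23 members (38.2% of all genes), GGAATG of TEAD factors in 3 (16.6%) and TGACTCA of AP-1 in 2 (5.95%). Matches of the CACCC box and the GC box can share bases, and a match is a description of letters, not a binding site.

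How did knockdown of Smarcc1 bear on these genes? Taking both hairpins against Nons within days, 3 of 26 members were called, all higher in knockdown, against 11.6% of all genes tested (6.88% higher and 4.77% lower), so the count lay near the background. They were Itga7, Itgb4 and Lama3. The median difference over the 26 members was 0.12 log2, against -0.01 over all genes tested. In the count of members whose 8 same-day differences all had the same sign there were 2, Lama3 and Itgb7, against 15.0% of all genes.

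Itga7 (chr10:128933813-128958277), a laminin receptor chain best known from muscle, had -0.58, -0.95, 1.32 and 1.36 log2 CPM in Nons on days 4 to 7. It had 1.12, 1.25, 1.35 and 2.49 in Smarcc1.6 and 0.73, 1.36, 1.03 and 2.29 in Smarcc1.7. The hairpin libraries were higher on days 4, 5 and 7, and the 3 groups lay together on day 6. The difference was 1.17 ± 0.30 (SE; limma, adjusted p = 0.0284), a 2.24-fold higher level, and 7 of 8 pairs were higher.

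The mean over days was 1.26 ± 0.93 (SD, n = 4) for Smarcc1.6 and 1.07 ± 1.08 for Smarcc1.7. Itga7 had 24 to 330 reads in the late libraries. Its call was lost without the Nons or Smarcc1.6 library of day 4, without any 1 library of day 5, and without all 3 libraries of day 4, day 5 or day 7 (adjusted p up to 0.167).

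Itgb4 (chr11:115974709-116008412), the partner of Itga6 in hemidesmosomes, had 1.32, 0.27, 2.16 and 3.33 log2 CPM in Nons, 2.82, 2.75, 2.14 and 3.95 in Smarcc1.6, and 2.42, 1.87, 1.94 and 4.86 in Smarcc1.7. Like Itga7 it was higher in both hairpin libraries on days 4, 5 and 7 and not on day 6. The difference was 1.07 ± 0.30 (limma, adjusted p = 0.0403), with 6 of 8 pairs higher. Its call was lost without any single library of day 4 or day 5, the Smarcc1.6 library of day 6, or the Nons or Smarcc1.7 library of day 7 (adjusted p up to 0.183).

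Lama3 was higher in 8 of 8 pairs, by 0.21, 1.05, 1.42 and 0.28 log2 with Smarcc1.6 on days 4 to 7 and by 0.17, 0.75, 1.09 and 0.05 with Smarcc1.7. The difference was widest on days 5 and 6, while the level was falling. It was 0.63 ± 0.16 on average (limma, adjusted p = 0.0303), with 0.74 ± 0.59 (SD, n = 4) for Smarcc1.6 and 0.51 ± 0.49 for Smarcc1.7, and was lost without any single library of day 5 or day 6 (adjusted p up to 0.135).

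Itgb7 missed the threshold although all 8 pairs were higher. Its differences were 1.12, 2.54, 0.50 and 0.19 with Smarcc1.6 and 0.94, 1.46, 0.23 and 0.06 with Smarcc1.7, and the fitted value was 0.88 ± 0.28 (limma, adjusted p = 0.0638). With any 1 library of day 5 left out, 0 of the 26 members were called for knockdown, and 0 with all 3 left out (limma, 9 members at an unadjusted p under 0.05 without day 5, against 10 with all libraries). Without the 3 libraries of day 4, 1 member was called higher and 2 lower, and without the Nons library of day 4 alone 1 was called higher and 4 lower, so the direction of the calls rested on that library.

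The most abundant chains did not pass the test. Itgb1 differed by -0.11 ± 0.08, Lama5 by -0.16 ± 0.10, Lamb1 by -0.27 ± 0.12, Lamc1 by 0.11 ± 0.09, Itga3 by 0.13 ± 0.10, Itga5 by -0.17 ± 0.09 and Itgb5 by -0.03 ± 0.12 log2 (SE). Itga6 differed by 0.24 ± 0.10 (limma, adjusted p = 0.151), with 6 of 8 pairs higher. Lamb3 had -0.62 ± 0.24, opposite in sign to Lama3, with an adjusted p of 0.109.

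In a fit of all 12 libraries with a term for each hairpin, the contrast of Smarcc1.6 with Nons called 2 of 26 members (Itga7 and Lama3; 9.30% of all genes) and that of Smarcc1.7 called 0 (2.45% of all genes; limma, 5 members at an unadjusted p under 0.05). For Itga7 the adjusted p was 0.0493 with Smarcc1.6 and 0.124 with Smarcc1.7, and for Lama3 0.0328 and 0.152. With the 8 libraries of Smarcc1.6 and Nons alone 0 members were called (limma, 7 at an unadjusted p under 0.05), with an adjusted p of 0.145 for Itga7 and 0.144 for Lama3, and with those of Smarcc1.7 and Nons alone also 0 (6 at an unadjusted p under 0.05). Set directly against each other the hairpins differed in 0 members and in 0 genes of all tested (limma, 0 members and 530 genes at an unadjusted p under 0.05). The fitted difference of Smarcc1.7 from Smarcc1.6 was -0.20 ± 0.35 for Itga7, -0.14 ± 0.36 for Itgb4 and -0.23 ± 0.18 for Lama3.

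**Figure D4:**
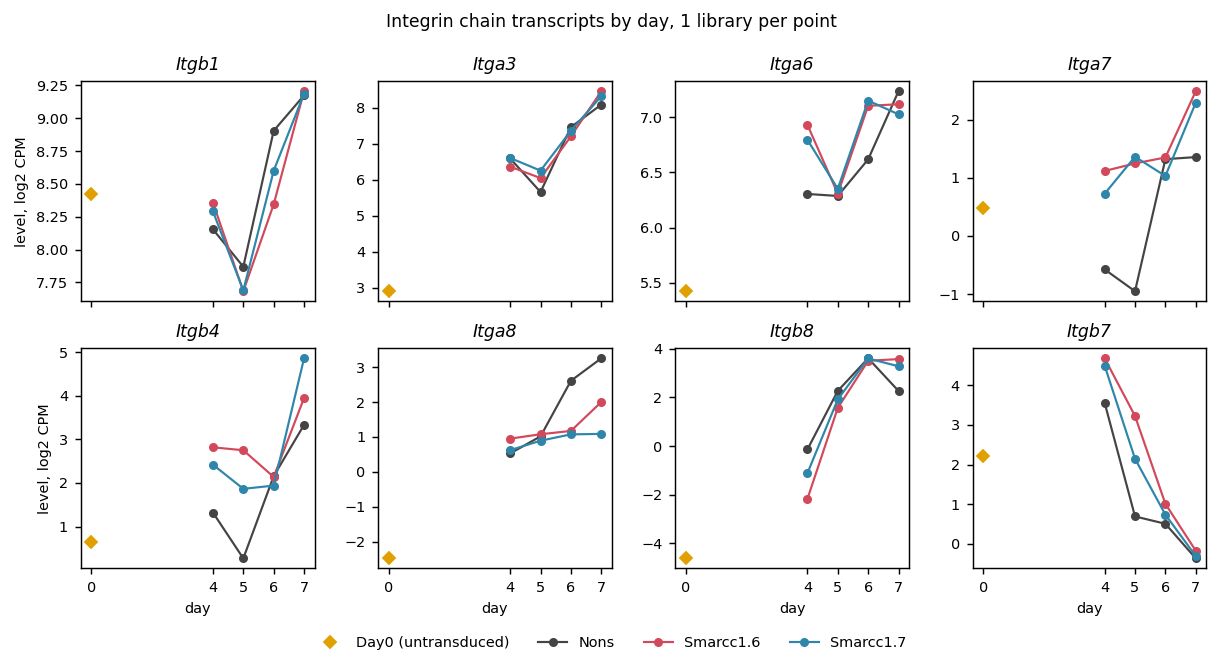
Level of 8 integrin chain genes (vertical axis, log2 CPM, a separate scale for each gene) by day (horizontal axis), with Day0 as a diamond and the groups as lines through 1 library per day. Itga7 and Itgb4 in both hairpin groups lie above Nons on days 4, 5 and 7 and beside it on day 6, Itga8 lies between 0.62 and 2.00 log2 CPM in the hairpin groups while Nons reaches 3.25, and Itgb7 falls in all 3 groups.

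Whether the effect of knockdown changed from day 4 to day 7 was asked with an interaction of knockdown and day, in a model with day as a factor. It called 3 of 26 members against 3.75% of all genes tested. These were Lama1, Itgb8 and Itga8, and Itga8 was outside the rule for named genes in this comparison and is given because the count is small. With day as a number in place of a factor, a model chosen after seeing the data, 0 members and 0 genes were called (limma, 2 members and 682 genes at an unadjusted p under 0.05), with adjusted p-values of 0.502 for Lama1, 1.00 for Itgb8 and 0.483 for Itga8. The slopes were the same in both models.

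Lama1 (chr17:67697265-67822645) showed the largest of these slopes. It stood at 5.16 log2 CPM at Day0. In Nons it had 3.26, 3.06, 2.64 and 2.59 on days 4 to 7, in Smarcc1.6 2.39, 2.89, 3.48 and 5.13, and in Smarcc1.7 2.53, 3.12, 2.85 and 4.74. Nons went down each day, and both hairpin groups were lower than Nons on day 4 and higher on day 7.

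In reads, Nons had 570, 388, 219 and 179, Smarcc1.6 had 333, 224, 415 and 2055, and Smarcc1.7 had 252, 122, 229 and 1354. On day 7 Nons had 6.03 CPM, Smarcc1.6 had 35.0 and Smarcc1.7 had 26.7, or 5.81-fold and 4.42-fold higher than Nons, and close to the 35.8 CPM of Day0. The difference changed by 1.00 ± 0.14 log2 per day (limma, adjusted p = 0.00380). Over all days it was 0.50 ± 0.36 and not called.

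The Lama1 slope rested on day 7. Without the Nons library of day 7 it was 0.66 with an adjusted p of 0.0850, and without all 3 libraries of day 7 the adjusted p was 0.0749. Parietal endoderm is known for making laminin-111, and 5 of 8 markers of primitive or parietal endoderm were tested. The sum of all 8 on day 7 was 93.1 CPM for Nons, 54.9 for Smarcc1.6 and 60.8 for Smarcc1.7 (7.67 at Day0), and 1 of the 5, Sox17, was called lower in knockdown. Their part in the level of Lama1 was not tested.

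Itgb8 was lower than Nons on day 4, by 2.04 log2 with Smarcc1.6 and 0.98 with Smarcc1.7, and higher on day 7, by 1.31 and 1.02. Days 5 and 6 lay between. The difference changed by 0.85 ± 0.17 per day (limma, adjusted p = 0.0231), and the call was lost without the Nons library of day 4 or that of day 7 (adjusted p up to 0.198) and without any 1 day.

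Itga8 (chr2:12106632-12301920) went the opposite way. It reached 0.53, 1.02, 2.61 and 3.25 log2 CPM in Nons, but 0.95, 1.08, 1.17 and 2.00 in Smarcc1.6 and 0.62, 0.89, 1.08 and 1.09 in Smarcc1.7. The hairpin libraries lay within 0.42 of Nons on days 4 and 5, and were lower by 1.25 to 2.17 on days 6 and 7. The difference changed by -0.74 ± 0.18 per day (limma, adjusted p = 0.0425), and it passed the threshold in 1 of 12 fits that each left out 1 library (highest adjusted p 0.159). The 4 mesoderm markers summed on day 7 to 333 CPM for Nons, 68.1 for Smarcc1.6 and 32.2 for Smarcc1.7, and both that were tested, T (-2.50 ± 0.67) and Eomes (-0.92 ± 0.26), were called lower in knockdown. Their part in the Itga8, Itgb8 and Lama1 differences was not tested.

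The 11 members under the filter are described by their reads and were not tested. Itgad and Itgax had at most 3 and 6 reads in any library, Itgb6 at most 15 and Itga2 at most 22. Lamc3 had 3 to 41 reads and Itga11 had 5 to 77 in the late libraries. Itga10 had 13 to 72, and its value is uncertain. Lama4, an alpha chain of vascular laminins, had 4 to 108.

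Itgal and Itgam, the leukocyte alpha chains that pair with Itgb2, declined alongside it. Itgal had 121, 55, 4 and 2 reads in Nons on days 4 to 7, 111, 95, 38 and 33 in Smarcc1.6, and 83, 31, 33 and 7 in Smarcc1.7. Itgam had 115, 47, 10 and 0 in Nons, 98, 73, 38 and 2 in Smarcc1.6, and 83, 44, 27 and 4 in Smarcc1.7. Lama2, the alpha chain of muscle laminin, had 74, 23, 1 and 5 reads in Nons, 178, 66, 10 and 14 in Smarcc1.6, and 104, 25, 3 and 9 in Smarcc1.7, and 0 at Day0. All 3 were thus highest on day 4 or day 5 in every group as levels, and no test was made of them.

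Itga2b and Itgb3, which form the platelet integrin, were tested and not called for knockdown. Itgb3 was higher than Nons by 1.602, 1.16 and 1.03 with Smarcc1.6 and by 1.36, 0.65 and 1.39 with Smarcc1.7 on days 4, 5 and 7, and lower by 0.68 and 0.61 on day 6, which gave 0.74 ± 0.27 (adjusted p = 0.0922). Of 3 megakaryocyte markers 0 passed the filter, Gp9 had 0 reads in all 13 libraries and Pf4 at most 1, and the 3 summed to at most 1.08 CPM. Itga1 carries reads that could belong to Pelo, which lies within it on the same strand (4.48 against 1.01 log2 CPM), so its value is uncertain.

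The other genes of this adhesion system were taken from 4 lists. These were chosen with earlier results of these data known, so the shares called are a description and not a test against all genes. Of the integrin adaptors and adhesion signalling genes, 24 of 27 table rows were tested, and knockdown called 1 higher and 6 lower (29.2%, against 11.6% of all genes tested in either direction, 6.88% higher and 4.77% lower), with a median of -0.09. Tgfb1i1, a paxillin relative at focal adhesions, was lower by 1.59 ± 0.34 log2 (limma, adjusted p = 0.0140) in 8 of 8 pairs. Its levels were 0.42, 0.46, 4.37 and 4.27 in Nons, -1.29, -2.34, 2.13 and 4.18 in Smarcc1.6 and -0.12, -2.22, 2.57 and 3.41 in Smarcc1.7, with 0.09 log2 between Smarcc1.6 and Nons on day 7.

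Parva, which joins integrin-linked kinase to actin, differed by -0.73 ± 0.17, and Zyx, a focal adhesion protein, by -0.55 ± 0.12. Tns1, a tensin that binds beta chain tails, was higher by 0.70 ± 0.12 in 8 of 8 pairs. Vcl, Flna and Fermt1 were also called lower.

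Of the other basement membrane components 8 of 12 were tested, and 0 were called higher and 3 lower (37.5%, against 11.6% of all genes, median -0.46). Agrn, a laminin-binding proteoglycan, differed by -0.59 ± 0.10 (adjusted p = 0.00563), the collagen IV chain Col4a1 by -0.55 ± 0.13 and the laminin-binding nidogen Nid2 by -0.52 ± 0.13. Of the other integrin ligands 11 of 16 were tested, with 2 called higher and 1 lower (27.3%, median -0.04). Fn1, which encodes fibronectin, differed by -0.80 ± 0.23 (limma, adjusted p = 0.0476), Mfge8 by 0.72 ± 0.16 and Spp1, which encodes osteopontin, by 0.63 ± 0.17. On days 4 to 7 Fn1 had 8.87, 7.13, 7.21 and 9.66 log2 CPM in Nons. It had 8.38, 7.28, 6.11 and 7.76 in Smarcc1.6, and 8.67, 7.30, 6.07 and 7.79 in Smarcc1.7. Both hairpin libraries were thus higher than Nons on day 5 and lower on the other days. Fits with a library left out are not given here for the genes of the lists. Of the laminin receptors other than integrins 15 table rows were tested, with 2 higher and 2 lower (26.7%, median -0.03). The syndecan Sdc4 differed by 0.64 ± 0.12 and Sgcb of the sarcoglycan complex by 0.42 ± 0.12, whereas Bcam, a receptor of Lama5, differed by -0.60 ± 0.17 and Sdc2 by -0.50 ± 0.10.

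**Figure D5:**
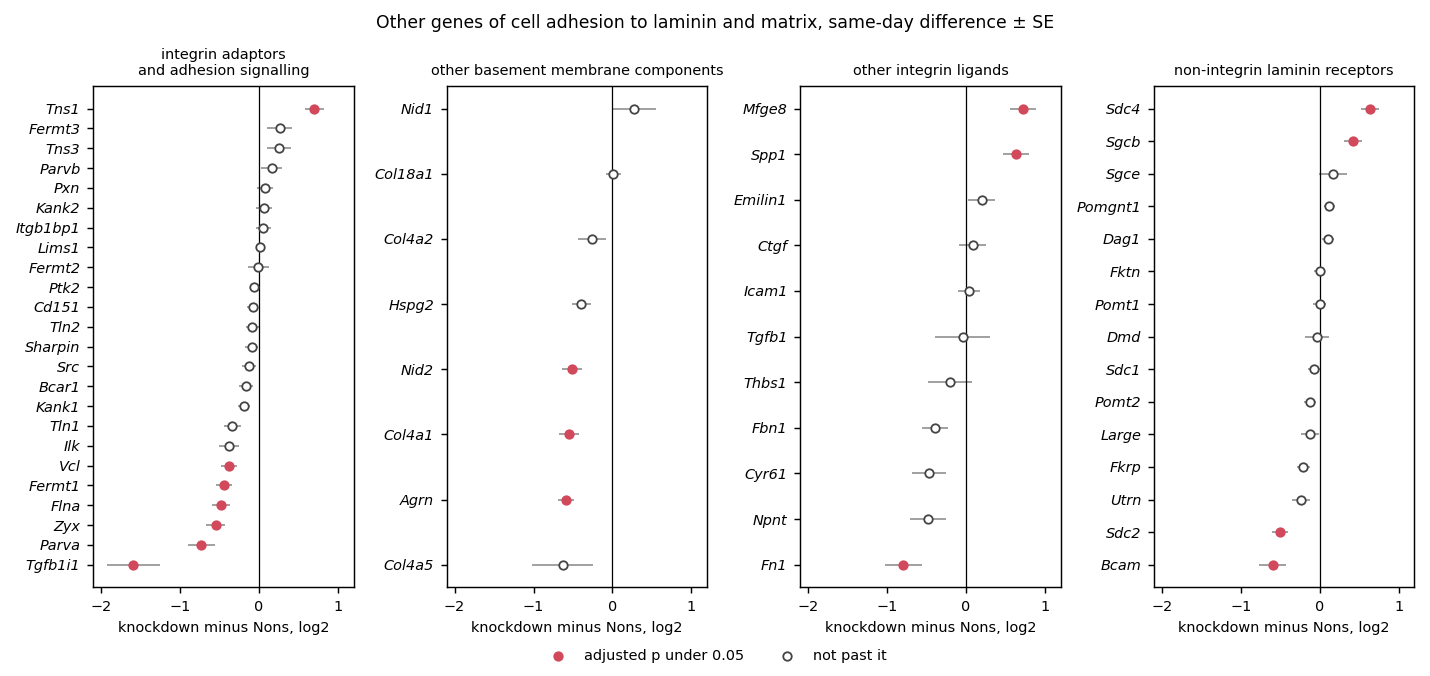
Same-day difference of knockdown from Nons ± SE (horizontal axis, log2) for the tested genes of the 4 lists (1 panel each, genes ordered by value), with filled red points past an adjusted p of 0.05. Of the filled points, 5 lie above 0 and 12 below it, and Tgfb1i1 lies farthest out at -1.59.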

How the data were processed

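RNA-seq was measured in 13 libraries: Day0 (1), and Nons, Smarcc1.6 and Smarcc1.7 (4 each). The authors made TruSeq libraries, sequenced paired-end 75 bp reads, trimmed them, aligned them with tophat or hisat2 to mm10 masked at strain polymorphisms (the submitters' processing notes name TopHat2 2.0.12), counted reads per gene in Seqmonk and deposited log2 values of CPM, with 0 reads written as 0.9. Which aligner served which library, the annotation release and the strand setting are not given in the sources used here. The deposited log2 values lay on steps of whole reads (100% within 0.1 reads), from which depth and reads per gene were recovered. Floors of 3 reads cover counting error only. Exonic lengths came from GENCODE M21.

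The 13406 of 25965 genes averaging 0 log2 CPM or more across the 12 late libraries were fitted with limma 3.58.1 in R 4.3.3 (lmFit, eBayes with trend), with day as a factor for knockdown, hairpins and interaction, and group as a covariate for the change per day. P-values were adjusted by Benjamini-Hochberg over all tested genes, threshold 0.05. No pseudocount was added. Day0 entered no test. Smarcc1 was tested by exact permutation within days. Scripts were tested on simulated data. Python 3.11.15 was used.

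The members and gene lists were chosen with earlier results of these data known. Named were members past the threshold for knockdown or a hairpin, the 4 largest rises and falls per day, the 2 highest chains per class per exonic kb, Itgb1, Lama1, Lama5, Lamb1 and Lamc1, members at Day0 outside the later range by at least 1, and per list up to 3 called genes in each direction. The values of 1 member counted here are not reported.

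Alternatives were other filters, scalings and depths, 1 read added, thinning, no trend, no replicate block, single hairpins, and each library or day left out. Markers of 9 cell types were read. Smooth muscle markers summed to 6.87 to 7.77 CPM on day 4 and 978 to 1283 on day 7. Mesoderm markers ran from 20.6 to 333 CPM, neuroectoderm from 32.8 to 261 and endothelium from 14.6 to 93.9 in the late libraries. Knockdown also called Krt8 lower (-0.50), and Sox1 (2.07) and Pecam1 (1.18) higher. The other tested markers of these lists were not called and went both ways. They were Cdx2 (-0.22), Tfap2c (0.37), Hand1 (0.26), Ascl2 (0.17), Krt18 (-0.27), Pax6 (0.21), Nes (-0.41), Kdr (-1.10) and Tek (0.34), and the smooth muscle markers. All 4 smooth muscle markers tested had a value below 0, at -0.92 for Acta2, -1.00 for Tagln, -0.34 for Cnn1 and -0.01 for Myl9. At Day0 Pecam1 stood at 7.81 log2 CPM, and the endothelium markers summed to 234 CPM.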

Additional observations from a re-analysis of the deposited data

Results flagged for a closer look

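The slope of the knockdown difference per day was called for 3 members (limma, interaction of knockdown and day). It was 1.00 log2 per day for Lama1, 0.85 for Itgb8 and -0.74 for Itga8. With day as a number, none of the 3 was called (adjusted p from 0.483 to 1.00), and Itga8 passed the threshold in 1 of 16 fits that left out a library or a day. In the same comparison of hairpins with Nons, Smarcc1 itself had 1 library far from the others of its group. The Smarcc1.7 difference on day 7 was -0.38 log2, nearer to 0 than on the other 3 days. Of 14 sets of 4 same-day differences looked at in this way, chance would be expected to give about 0.7 such libraries, and 1 was found.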

How the results depend on the processing

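Over all results, 372 of 485 values from alternatives kept their direction and their side of the threshold, or, for counts in either direction, stayed within 1.5 times, and no difference of a single gene changed sign. Members called for knockdown (3) became 1 without the eBayes trend and 0 without the replicate block, with Smarcc1.6 only and with Smarcc1.7 only, and ran from 0 to 5 when a library or a day was left out. The direction of these calls also changed, from 3 higher and 0 lower to 1 higher and 4 lower without the Nons library of day 4 and to 1 higher and 2 lower without all of day 4. The contrast of Smarcc1.6 with Nons in the fit of both hairpins (2) gave 1 with the filter at 2, 5 with no filter and 1 after thinning to the smallest depth. It gave 0 without the trend and 0 without the replicate block, and 0 to 4 with a library or day left out. For Smarcc1.7 (0), leaving out a library or day gave 0 to 1. Members that changed with day (21) became 12 with the filter at 2, where 15 were tested, and ran from 10 to 22 with a library or day left out. The interaction (3) gave 1 with the filter at 2, 0 with day as a number, and 1 to 5 with a library or day left out. The lowered counts without the block follow from its construction, since the change with day then enters the spread. For the other changes the cause was not tested. The Smarcc1 difference ran from -1.25 to -0.94 with a day left out. Of 333 values for single members, 77 fell on the other side of the threshold. At the smallest depth, 3 reads lie at -2.22 log2 CPM, which limits the members under the filter.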

Other observations

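The same 4 lists also changed with day. Of the integrin adaptors and adhesion signalling genes 15 of 24 tested rose and 2 fell, of the other basement membrane components 5 of 8 rose and 1 fell, of the other integrin ligands 4 of 11 rose and 2 fell, and of the laminin receptors other than integrins 7 of 15 rose and 3 fell (limma, adjusted p under 0.05). The background over all genes tested was 34.9% rising and 25.6% falling. Tgfb1i1 rose by 1.72 ± 0.34 log2 per day and Parva by 1.35 ± 0.10, and Spp1 fell by 0.45 (SE 0.09). Nid1, which links laminin to collagen IV, was not called for knockdown (0.27 ± 0.28), and its difference from Nons changed by -0.69 ± 0.15 per day (limma, adjusted p = 0.0265), with day as a factor. The same fit also called Fn1 (-0.59 ± 0.12 per day, limma, adjusted p = 0.0217) and Fermt2 (-0.30 ± 0.08, adjusted p = 0.0473). With day as a number 0 genes were called.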
